A study of Mus musculus with 24 samples.

Results

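The 9 genes described here link the circadian clock to its outputs in liver: the REV-ERB receptors Nr1d1 and Nr1d2, the ROR receptor Rora, the PAR bZIP factors Dbp, Tef and Hlf, their competitor Nfil3, and the rhythmic enzymes Noct and Usp2. They were chosen by name, as the rows of the expression table whose gene identifiers map to these symbols. The choice was made with earlier results of these data known, so it was not blind to them. These genes make up 9 of the 18171 genes in the table. All 9 passed the filter on low values (6 or more libraries at an FPKM of 1 or above), as did 10532 genes in all. FPKM, a count of fragments scaled by gene length and by the fragments mapped in the library, is a level per length, so levels of different genes can be set side by side.

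Liver RNA was sequenced from C57BL/6 mice of 2 genotypes, with 12 libraries each. L2d13 livers came from mice that overexpressed the form the labels call L2 delta13, and wild-type (WT) livers came from mice without it. The sample names add a digit, 2 or 4, of unstated meaning, which splits each genotype into a set 2 and a set 4 of 6 libraries. Titles number the libraries of set 2 from 1 to 6 and those of set 4 from 7 to 12 within each genotype. The labels give no promoter or construct for L2d13, and no sex, age, hour of collection or feeding state for any group. Running numbers in the sample names form a separate block in each of the 4 groups, and what they follow cannot be told apart from the group. Whether each library stands for an animal of its own is not stated, and the p-values therefore reflect spread among these samples that may be technical.

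In the mammalian clock, CLOCK and BMAL1 (the product of Arntl) bind E-box elements and drive their own repressors, the PER and CRY proteins, as well as Nr1d1, Nr1d2, Dbp, Tef and Hlf. REV-ERB proteins bind ROR response elements and repress Arntl and Nfil3, while ROR proteins activate through the same elements. DBP, TEF and HLF activate genes that carry D-box elements, where the NFIL3 protein represses. In liver these arms give daily rhythms to genes of lipid, bile acid and drug metabolism, and the levels of Nr1d1 and Dbp swing strongly over the day.

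Promoter sequence was taken from RefSeq (GRCm38.p6), which held 10 windows of 300 bases, from 250 before to 50 after the start, for the 9 genes. Both strands were searched for the E-box CACGTG, the E-box variant CACGTT, the ROR element TAGGTCA or TGGGTCA and the D-box TTATGTAA or TTACGTAA. Of 32851 such windows in the RefSeq table, 7.15% held the E-box, 4.68% the variant, 6.45% the ROR element and 1.06% the D-box. Among the 9 genes the E-box was found in both Tef windows, 127 and 138 bases before the start, the variant in Nr1d1, 28 bases before the start, and the ROR element in Nfil3, 12 bases before the start. No window of the 9 genes held the D-box, and the windows of Nr1d2, Rora, Dbp, Hlf, Noct and Usp2 held none of the 4 motifs. A match describes letters only, and a window without one says nothing of sites elsewhere in the gene. The starts are those of RefSeq. The matches of Tef and Nfil3 lie inside the spans that the GENCODE annotation gives these genes, as listed below.

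The stretches below are those of the genes whose levels differed between groups and that held a match, with Nr1d2 and Noct, which held none, for comparison. They are written 5′ to 3′ on the strand of the gene, with matches in capitals.
Nr1d1, chr11:98775378-98775477, minus strand, the variant read on the other strand: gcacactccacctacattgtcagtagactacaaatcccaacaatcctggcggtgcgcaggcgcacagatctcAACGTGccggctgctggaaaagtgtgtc
Nr1d2, chr14:18239107-18239206, minus strand: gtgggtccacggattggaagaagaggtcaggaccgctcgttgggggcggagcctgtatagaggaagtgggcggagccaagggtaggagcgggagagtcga
Nfil3, chr13:52981045-52981139, minus strand, the ROR element read on the other strand: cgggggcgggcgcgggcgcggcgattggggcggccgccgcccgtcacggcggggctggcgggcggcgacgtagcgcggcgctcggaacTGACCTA
Tef, first window, chr15:81802534-81802563, plus strand: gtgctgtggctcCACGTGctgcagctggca
Tef, second window, chr15:81811224-81811323, plus strand: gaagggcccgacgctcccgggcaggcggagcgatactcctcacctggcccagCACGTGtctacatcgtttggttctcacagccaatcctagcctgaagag
Noct, chr3:51224347-51224446, plus strand: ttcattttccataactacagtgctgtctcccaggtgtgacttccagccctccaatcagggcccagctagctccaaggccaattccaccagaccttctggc

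The libraries were checked before the genes were compared. Summed FPKM per library ran from 550260 to 722980, and 9463 to 11371 genes reached an FPKM of 1. FPKM holds no fragment total, so depth is unknown. From the steps between low values, FPKM per fragment stood above the rest in 4 libraries (1.044 to 1.278 of the common value, against 0.974 to 1.024 in the other 20): L2d13 set 2 replicate 3, WT set 2 replicate 6 and WT set 4 replicates 9 and 10. The targeted gene Loxl2 averaged 1.5 FPKM (SD 0.384) over the 12 L2d13 libraries against 0.68 (SD 0.254) over the 12 WT libraries. Its annotated copy Gm21451 lay at 40.63 to 266.18 and at 0.03 to 1.27, without overlap and in the direction of the labels. The 6 hepatocyte markers (Alb, Apoa1, Ttr, Cps1, Cyp2e1, Serpina1c) summed to an FPKM of 31500 to 64100 in single libraries, in every group, so the labelled tissue's defining genes were present throughout.

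In WT livers the 9 genes spanned a wide range of levels. By median FPKM over the 12 WT libraries the order was Nfil3 (29.36), Noct (21.93), Tef (12.84), Hlf (8.06), Rora (7.52), Usp2 (4.92), Nr1d2 (3.49), Nr1d1 (3.41) and Dbp (1.01). Ranges over the 12 libraries overlapped between every pair of neighbours in this order. In L2d13 livers of set 4 the order of medians was another: Nr1d1 (28.21) stood first, followed by Tef (21.14), Nfil3 (18.62), Nr1d2 (9.1), Hlf (8.0), Dbp (7.72), Rora (5.33), Noct (3.16) and Usp2 (2.68).

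Within set 4, L2d13 livers had higher Nr1d1, Nr1d2, Dbp and Tef and lower Rora, Nfil3, Noct and Usp2 than WT livers, while Hlf was not called. With limma on log2(FPKM + 1), 8 of the 9 genes thus passed an adjusted p of 0.05, 4 in each direction, where 13.3% of all tested genes passed (10.3% higher and 2.97% lower). Within set 2, 1 of the 9 passed, Noct, which was lower, where 15.1% of all tested genes passed (13.0% higher and 2.13% lower). Median log2 differences of the 9 genes were -0.02 in set 4 and -0.25 in set 2, against 0.08 and 0.16 over all tested genes. Over both sets, with set as an additive term, 2 of the 9 were higher (Nr1d1 and Nr1d2) and 3 lower (Rora, Noct and Usp2), where 30.8% of all tested genes passed (25.9% higher and 4.86% lower).

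The split of all calls by direction followed the scaling, which moved the median of all genes by up to 0.16 on the log2 scale. Of the called genes, 77.7% were higher in set 4, against 49.7% with median-of-ratios scaling and 56.4% with quantile normalization. In set 2 the shares were 85.9%, 48.9% and 49.9%, and over both sets 84.2%, 51.1% and 54.8%. For the comparisons below they were 18.8%, 36.8% and 33.3% (difference of the effects), 9.09%, 34.9% and 39.4% (set 4 against set 2 in L2d13) and 45%, 70.6% and 63.2% (the same in WT). The 8 calls among the 9 genes in set 4 held under both scalings.

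In set 4 the libraries of the 2 genotypes did not overlap for 4 of the 9 genes, with 2 above (Nr1d1 and Nr1d2) and 2 below (Nfil3 and Noct). Of all tested genes 6.56% had no overlap there (4.86% above and 1.70% below). In set 2 the groups overlapped for all 9 genes, where 6.00% of all tested genes had no overlap (5.44% above and 0.560% below). Overlaps, here and below, are those of FPKM as deposited and were not examined under the other scalings.

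**Figure D1:**
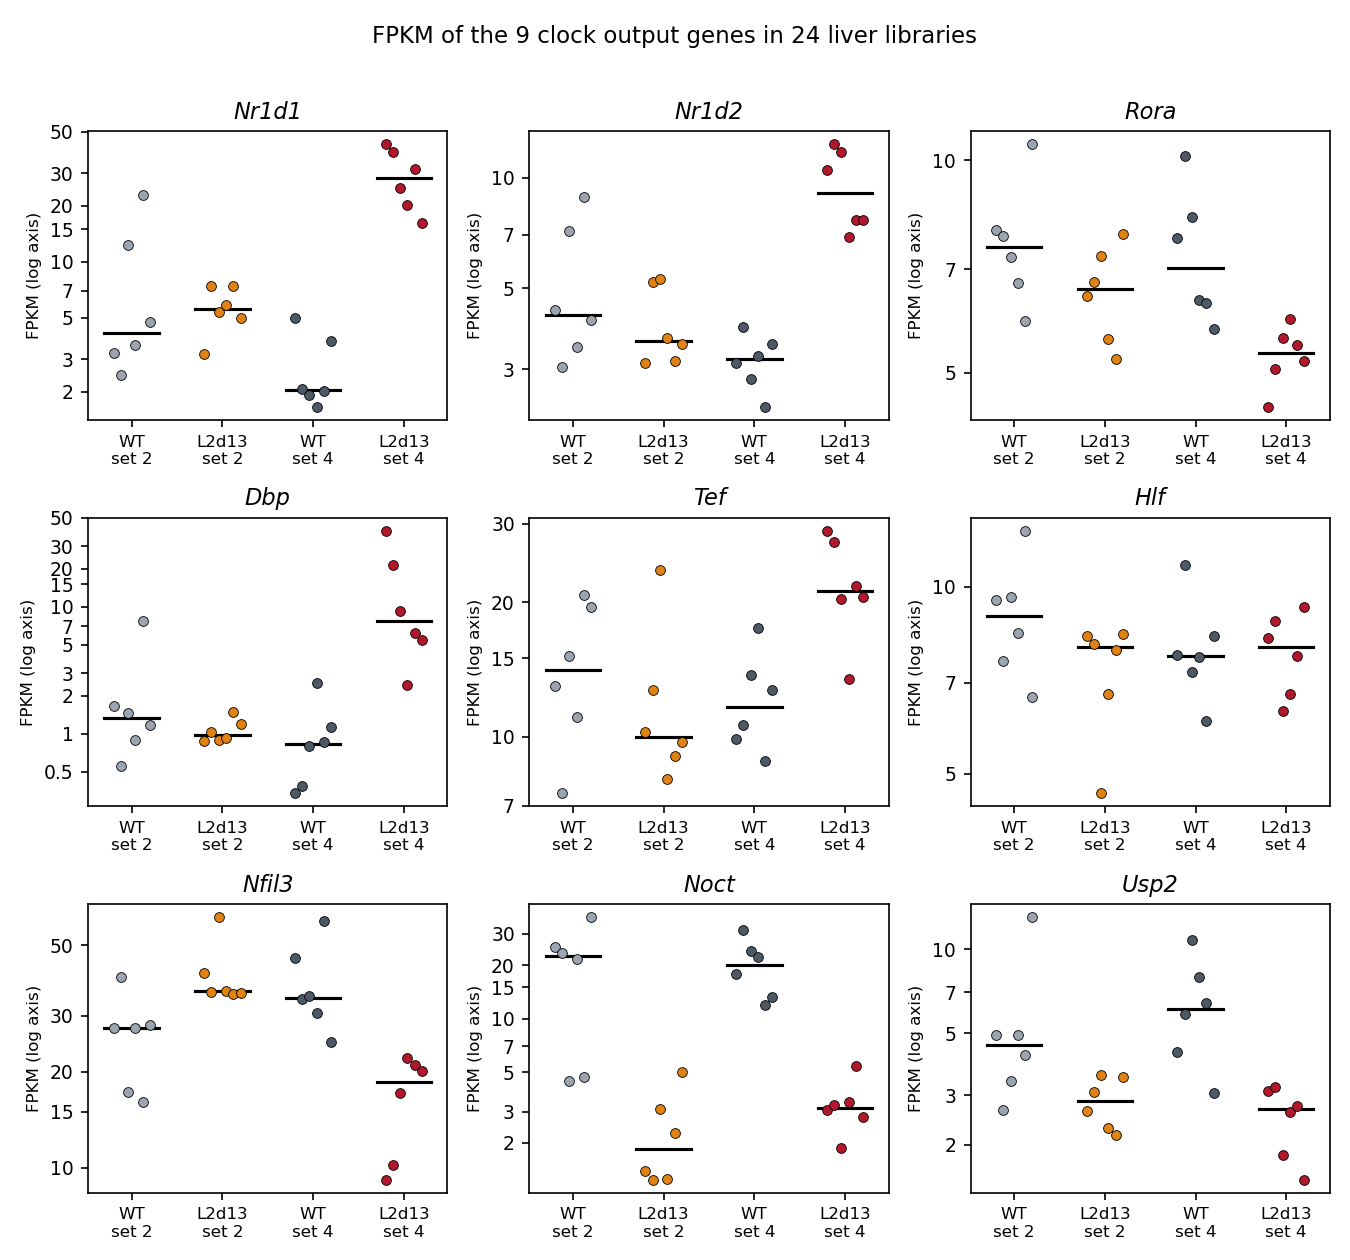
FPKM of the 9 genes (log axis, 1 panel per gene) in each of the 24 libraries, by genotype and set, with the group median as a bar. In set 4 the L2d13 points of Nr1d1 (16.1 to 42.77) and Nr1d2 (6.92 to 12.35) lie above all WT points of that set and those of Nfil3 (9.16 to 22.04) and Noct (1.88 to 5.42) lie below them, while the Hlf groups overlap in both sets.

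Nr1d1 and Nr1d2 encode REV-ERBα and REV-ERBβ, nuclear receptors that bind heme and repress transcription, and both were higher in L2d13 livers of set 4. Nr1d1 (gene 217166, chromosome 11, 98767932 to 98775333, minus strand, GENCODE annotation of GRCm38) had an FPKM of 16.1 to 42.77 in L2d13 livers of set 4 (median 28.21, n = 6) and of 1.66 to 5.0 in WT livers of that set (median 2.04, n = 6). All 6 L2d13 libraries lay above all 6 WT libraries. The log2 difference was 3.0 ± 0.36 (SE; limma, adjusted p = 1.28e-05), or 7.99-fold on the log2(FPKM + 1) scale. In set 2 the levels were 3.2 to 7.43 in L2d13 (median 5.6) and 2.47 to 22.8 in WT (median 4.14), and the groups overlapped. There the log2 difference was -0.11 ± 0.36 (SE; limma, adjusted p = 0.872), with a 95% interval of -0.85 to 0.63, and its sign turned when WT set 2 replicate 5 (0.24), WT set 2 replicate 3 (0.08) or L2d13 set 2 replicate 1 (0.02) was left out.

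Nr1d2 (gene 353187, chromosome 14, 18204054 to 18239127, minus strand), the second REV-ERB gene, was also highest in L2d13 set 4 and lowest in WT set 4 by median, at a smaller size. In set 4 it reached 6.92 to 12.35 in L2d13 (median 9.1) and 2.37 to 3.91 in WT (median 3.2). The L2d13 libraries again all lay above the WT libraries. The log2 difference was 1.31 ± 0.19 (SE; limma, adjusted p = 0.000137), or 2.48-fold on the log2(FPKM + 1) scale. In set 2 the levels were 3.12 to 5.31 in L2d13 and 3.04 to 8.89 in WT, with a log2 difference of -0.25 (limma, adjusted p = 0.401; 95% interval -0.64 to 0.14). The exact two-sided permutation test of 6 against 6 libraries in set 4 gave p = 0.00216 for both genes, the smallest that this design allows.

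Rora (gene 19883, chromosome 9, 68653786 to 69388246, plus strand), the activator that competes with the REV-ERBs, moved the other way and little. Its FPKM in set 4 was 4.47 to 5.96 in L2d13 (median 5.33) and 5.77 to 10.13 in WT (median 7.04), so that the groups overlapped at their edges. The log2 difference was -0.40 ± 0.13 (SE; limma, adjusted p = 0.0373), and in set 2 it was -0.20 ± 0.13 (adjusted p = 0.297). The call in set 4 was lost when any 1 of 7 libraries was left out (L2d13 set 4 replicates 7, 8, 9 and 12 and WT set 4 replicates 7, 8 and 9), with an adjusted p of up to 0.0894, without the filter on low values (adjusted p = 0.0568) and with a block for replicate number (adjusted p = 0.0561). The set 2 value was called with median-of-ratios scaling (-0.36, adjusted p = 0.0395) and with quantile normalization (-0.36, adjusted p = 0.0317). The ratio of Nr1d1 to Rora, a repressor against an activator at the same elements, had a median of 5.11 in L2d13 set 4 (3.1 to 9.57) and of 0.292 in WT set 4 (0.203 to 0.648), with 0.891 and 0.491 in L2d13 and WT of set 2.

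Among the PAR bZIP activators, Dbp (gene 13170, chromosome 7, 45705088 to 45710203, plus strand) differed most. In WT livers its FPKM was 0.56 to 7.75 in set 2 (median 1.32) and 0.34 to 2.5 in set 4 (median 0.83). L2d13 livers had 0.88 to 1.49 in set 2 (median 0.98) and 2.44 to 39.61 in set 4 (median 7.72). The set 4 groups overlapped in a single place, since L2d13 replicate 10 (2.44) lay just under WT replicate 10 (2.5). The highest levels were those of L2d13 set 4 replicates 7 (39.61) and 8 (21.19), which also had the highest Nr1d1 and Tef and the lowest Nfil3 of that group. The log2 difference in set 4 was 2.49 ± 0.44 (SE; limma, adjusted p = 0.000875), or 5.63-fold on the log2(FPKM + 1) scale, and that in set 2 was -0.38 ± 0.44 (adjusted p = 0.598).

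Tef (gene 21685, chromosome 15, 81802421 to 81826863, plus strand) had an FPKM of 13.49 to 28.91 in L2d13 set 4 (median 21.14) and of 8.84 to 17.52 in WT set 4 (median 11.66). The groups overlapped, and the log2 difference was 0.80 ± 0.24 (SE; limma, adjusted p = 0.0287). Without L2d13 set 4 replicate 7, L2d13 set 4 replicate 8 or WT set 4 replicate 11 the adjusted p was 0.0631, 0.0686 and 0.0774, it was 0.0529 without the filter on low values, and 0.0772 with a block for replicate number. Hlf (gene 217082, chromosome 11, 90336536 to 90390895, minus strand), the third PAR bZIP gene, had group medians of 7.74 to 8.98, with single libraries from 4.65 (L2d13 set 2 replicate 3) to 12.31 (WT set 2 replicate 5). Its log2 difference was -0.02 in set 4 (95% interval -0.32 to 0.28) and -0.26 in set 2 (-0.56 to 0.03).

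Nfil3 (gene 18030, chromosome 13, 52967209 to 52981073, minus strand) encodes the repressor that binds the D-box in place of the PAR bZIP activators, and it is itself a REV-ERB target. Its FPKM in set 4 was 9.16 to 22.04 in L2d13 (median 18.62) and 24.79 to 59.82 in WT (median 34.26), without overlap. In set 2 the order of the medians was turned, with 35.13 to 61.29 in L2d13 (median 35.8) and 16.08 to 39.79 in WT (median 27.53), and the groups overlapped. The log2 difference was -1.17 ± 0.24 (SE; limma, adjusted p = 0.00264) in set 4. In set 2 it was 0.66 ± 0.24 (adjusted p = 0.0628), and all 6 L2d13 libraries lay above the WT mean (exact permutation p = 0.0108). The set 2 value was called without WT set 2 replicate 2 (0.79, adjusted p = 0.0305) and in no other of the 24 fits that left out 1 library. Over these fits it ran from 0.53 to 0.79, with an adjusted p of up to 0.134.

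Because Dbp and Nfil3 act against each other at the D-box, their ratio was taken in each library. The Dbp to Nfil3 ratio of FPKM had a median of 0.418 (0.111 to 4.32) in L2d13 set 4 and of 0.0188 (0.00744 to 0.0816) in WT set 4. The L2d13 libraries of set 4 thus all had a higher ratio than the WT libraries of that set. In set 2 the medians were 0.0274 in L2d13 (0.0147 to 0.0424) and 0.051 in WT (0.0141 to 0.482). In every library of the other 3 groups Nfil3 had a higher FPKM than Dbp, while in L2d13 set 4 replicates 7 and 8 Dbp had the higher one.

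**Figure D2:**
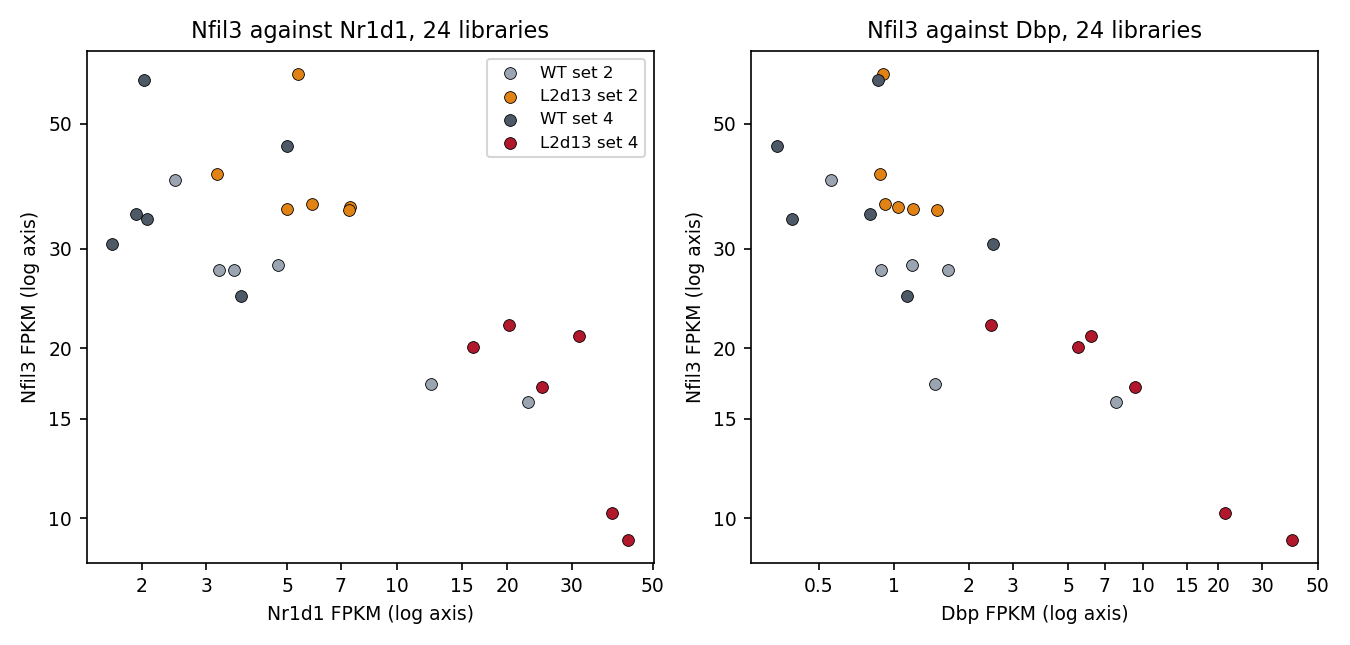
Nfil3 FPKM against Nr1d1 FPKM (left) and against Dbp FPKM (right) in the 24 libraries, log axes, coloured by group. L2d13 set 4 libraries lie at high Nr1d1 (16.1 to 42.77) and low Nfil3 (9.16 to 22.04), and in the left panel WT set 2 replicates 3 and 5 lie beside them, at Nr1d1 of 12.37 and 22.8 and Nfil3 of 17.32 and 16.08.

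Noct and Usp2 are the enzymes of the group. Noct (gene 12457, chromosome 3, 51224447 to 51251644, plus strand) encodes nocturnin, a phosphatase with a strong daily rhythm in liver, known for its part in lipid handling. Its FPKM in set 4 was 1.88 to 5.42 in L2d13 (median 3.16) and 12 to 31.52 in WT (median 20.07). In set 2 it was 1.24 to 5.02 in L2d13 (median 1.84) and 4.46 to 37.26 in WT (median 22.49). The groups of set 4 did not overlap, and those of set 2 did only through WT replicates 3 (4.46) and 5 (4.7), since the other 4 WT libraries lay between 21.65 and 37.26.

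Noct fell by 2.27 ± 0.39 on the log2 scale (SE; limma, adjusted p = 0.000814) in set 4 and by 2.35 ± 0.39 (adjusted p = 0.000457) in set 2. On the log2(FPKM + 1) scale this is 4.81-fold and 5.11-fold lower, and the added 1 makes such folds smaller than those of FPKM. The difference between these effects was 0.09 ± 0.56 (SE), with a 95% interval of -1.06 to 1.23 and an adjusted p of 0.978. It was the only one of the 9 genes called within each set. Usp2 (gene 53376, chromosome 9, 44067021 to 44095627, plus strand) encodes a deubiquitinase that acts on clock proteins. Its FPKM was 1.5 to 3.21 in L2d13 and 3.07 to 10.77 in WT in set 4, and 2.17 to 3.54 and 2.67 to 13.0 in set 2. Both pairs of groups overlapped, in set 4 because WT replicate 12 (3.07) lay under L2d13 replicates 7 (3.1) and 8 (3.21). It fell by 1.02 ± 0.25 (SE; limma, adjusted p = 0.0104) in set 4, and the set 2 value of -0.62 ± 0.25 was not called (adjusted p = 0.102).

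**Figure D3:**
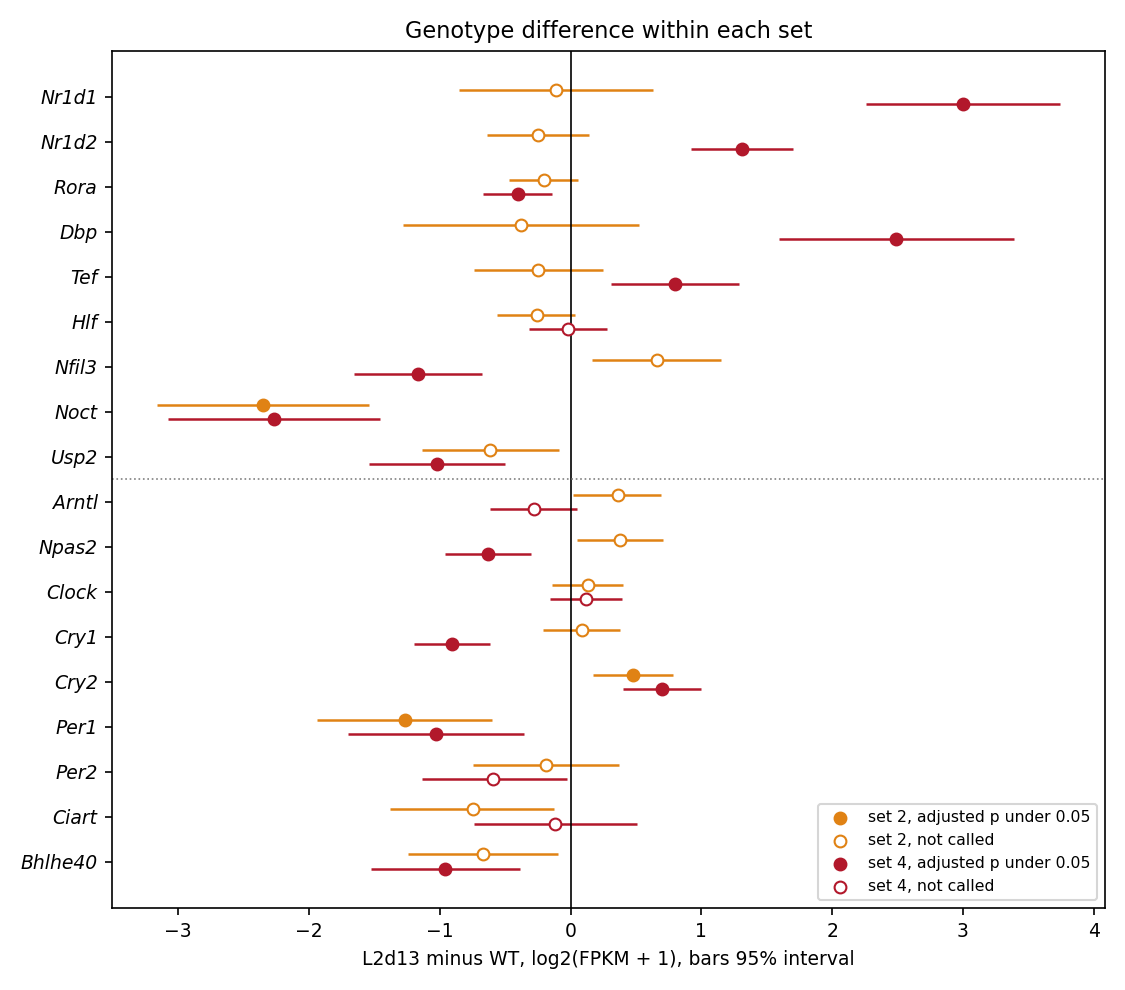
Log2 difference of L2d13 from WT within set 2 (orange) and set 4 (red) for the 9 genes (above the dotted line) and for core clock genes (below it). Bars span the 95% interval, and filled points have an adjusted p under 0.05. Noct has nearly equal values in the sets (-2.35 and -2.27), while Nr1d1 has -0.11 in set 2 and 3.0 in set 4.

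Whether the genotype effect differed between the sets was tested as the difference of the 2 effects. For 3 of the 9 genes this difference was called, where 0.152% of all tested genes (16 genes; 0.0285% higher and 0.123% lower) passed. The genotype effect in set 4 exceeded that in set 2 by 3.11 ± 0.51 (SE; limma, adjusted p = 0.00541) for Nr1d1 and by 1.56 ± 0.27 (adjusted p = 0.00982) for Nr1d2. For Nfil3 the difference was -1.83 ± 0.34 (adjusted p = 0.0212). Without the 4 libraries of higher FPKM per fragment the values were 2.98 (adjusted p = 0.0618) for Nr1d1, 1.65 (0.0473) for Nr1d2 and -1.82 (0.0767) for Nfil3. The Nfil3 call was also lost without L2d13 set 4 replicate 8 (-1.71, adjusted p = 0.054), without WT set 2 replicate 5 (-1.71, 0.0514) and without the filter on low values (-1.83, 0.057).

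For Dbp the difference of the effects was 2.87 ± 0.62 (SE; limma, adjusted p = 0.0603), and so it was not called. It was called with a pseudocount of 0.1 (3.85, adjusted p = 0.0388), without L2d13 set 4 replicate 10 (3.20, adjusted p = 0.0134) and without WT set 2 replicate 2 (3.03, adjusted p = 0.044). Tef (1.04, unadjusted 95% interval 0.35 to 1.74), Usp2 (-0.40, -1.14 to 0.34), Hlf (0.25, -0.18 to 0.67) and Rora (-0.20, -0.58 to 0.17) were not called either. For Usp2, Hlf and Rora the intervals hold 0, and those of Tef and Usp2 also hold differences of more than 1 in size.

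Each genotype was also compared between its own sets. In L2d13 livers 5 of the 9 genes were called, 4 higher and 1 lower in set 4, where 6.06% of all tested genes were called (0.551% higher and 5.51% lower). Higher were Nr1d1 (log2 2.12 ± 0.36, SE; limma, adjusted p = 0.00177), Nr1d2 (1.06 ± 0.19, adjusted p = 0.00252), Dbp (2.37 ± 0.44, adjusted p = 0.00348) and Tef (0.85 ± 0.24, adjusted p = 0.0351), and Nfil3 was lower (-1.28 ± 0.24, adjusted p = 0.0038). In the same comparison 3 of 6 sinusoidal endothelium markers fell (Clec4g, Pecam1 and Lyve1; list median -0.89) and 4 of 6 stellate cell markers fell (Dcn, Lrat, Reln and Rgs5; list median -0.66), and none rose. The part of these cells in the change between the sets was not tested. The Tef call was lost in 9 of the 24 fits that left out 1 library, with an adjusted p of up to 0.0897, and without the filter on low values (0.0545). Nr1d1, Nr1d2 and Dbp were higher in every L2d13 library of set 4 than in any of set 2 and Nfil3 lower, where 5.34% of all tested genes had no overlap (0.370% higher and 4.97% lower).

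In WT livers none of the 9 genes was called between the sets by limma, and 3 had an unadjusted p under 0.05, where 0.190% of all tested genes were called (0.0855% higher and 0.104% lower). The groups overlapped for all 9, where 0.437% of all tested genes had no overlap (0.114% higher and 0.323% lower). The log2 differences of set 4 from set 2 were -0.98 for Nr1d1, -0.50 for Nr1d2, -0.50 for Dbp and 0.54 for Nfil3. In sign these 4 were opposite to those in L2d13 livers. WT set 2 replicates 3 and 5 stood apart in several genes: both had Nr1d1 (12.37 and 22.8), Nr1d2 (7.15 and 8.89) and Cry2 (5.59 and 7.18) above the other 4 libraries of the group, and Nfil3 (17.32 and 16.08), Noct (4.46 and 4.7) and Per1 (4.06 and 7.33) below them. They were kept in every comparison, since no label sets them apart.

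**Figure D4:**
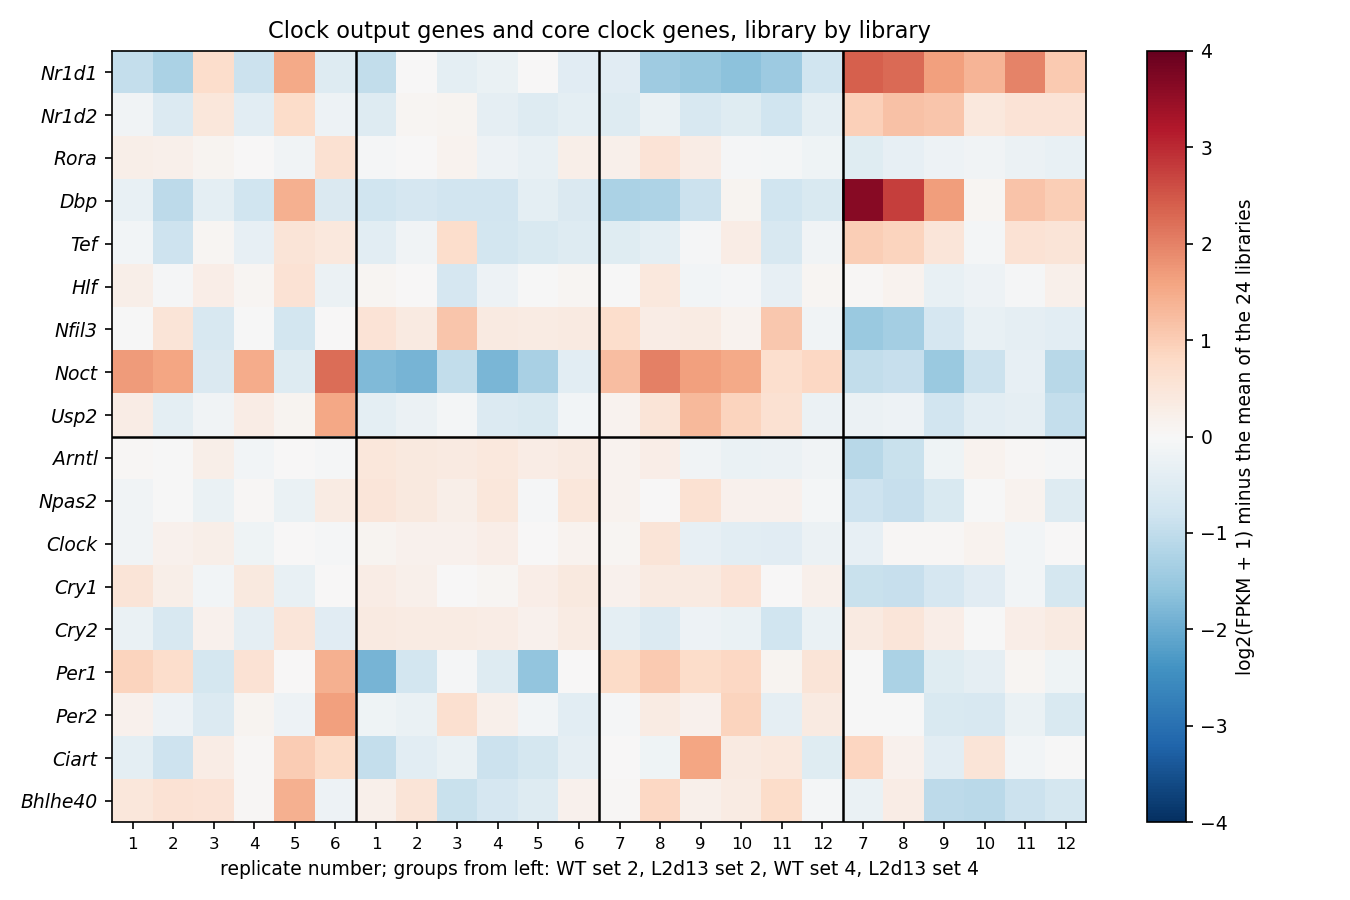
Log2(FPKM + 1) of each gene minus its mean over the 24 libraries (red above, blue below), for the 9 genes (top) and for core clock genes (bottom). Columns are libraries, in the order WT set 2, L2d13 set 2, WT set 4 and L2d13 set 4, and WT set 2 replicates 3 and 5 share low Noct (4.46 and 4.7 FPKM) with the L2d13 columns.

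The genes that drive the 9 and that they act on were taken from lists. Of the 3 core activators Clock, Arntl and Npas2, 1 fell in set 4 and none rose, where 13.3% of all tested genes were called (10.3% higher and 2.97% lower). Npas2 had a log2 difference of -0.63 ± 0.16 (SE; limma, adjusted p = 0.0126), a call lost without the 4 libraries of higher FPKM per fragment (-0.52, adjusted p = 0.0506). Arntl, the main REV-ERB target of the clock, had -0.28 ± 0.16 (adjusted p = 0.255) in set 4 and 0.36 ± 0.16 (adjusted p = 0.139) in set 2. In set 2 all 6 L2d13 libraries (9.09 to 10.13) lay above all 6 WT libraries (6.59 to 8.48). Of all tested genes 5.44% lay above without overlap there, Arntl among them. In L2d13 set 4 the FPKM of Arntl ran from 2.78 to 8.05. It was lowest in replicates 7 (2.78) and 8 (3.38), the libraries with the highest Nr1d1 (42.77 and 38.81) and Dbp. Between the sets of L2d13 livers Arntl was lower in set 4 by limma (-0.72 ± 0.16, adjusted p = 0.0119). The libraries did not overlap, where 4.97% of all tested genes were lower without overlap. The Nr1d1 to Arntl ratio had a median of 4.18 (2.34 to 15.4) in L2d13 set 4 and of 0.32 (0.236 to 0.62) in WT set 4.

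Of the 8 core repressors 6 were tested, and in set 4 Cry2 rose and Cry1, Per1 and Bhlhe40 fell. Of all tested genes 10.3% were called higher and 2.97% lower in that set. Cry1, which carries both E-box and ROR elements in its regulation, had an FPKM of 2.89 to 5.71 in L2d13 and of 6.37 to 9.66 in WT, a log2 difference of -0.91 ± 0.14 (SE; limma, adjusted p = 0.000289). Per1 (-1.03 ± 0.33, adjusted p = 0.0374), Cry2 (0.70 ± 0.15, adjusted p = 0.0032) and Bhlhe40 (-0.96 ± 0.28, adjusted p = 0.0238) were the others called. Per1 and Cry2 were called in set 2 as well, in the same directions (-1.27 and 0.48), where 13.0% of all tested genes were called higher and 2.13% lower. The call of Per1 in set 4 was lost when any 1 of 8 libraries was left out, with an adjusted p of up to 0.102, and that of Bhlhe40 without L2d13 set 4 replicates 9 or 10 or WT set 4 replicate 11 (up to 0.0634). Per3 and Bhlhe41 lay below the filter, with median FPKM of 0.76 and 0.22 in L2d13 set 4 and of 0.32 and 0.11 in WT set 4 (exact permutation p = 0.0628 and 0.0173).

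Of the 4 tested genes among the other receptors and partners listed, none was called by limma in set 4, and 0 had an unadjusted p under 0.05 there. Nr1h3, the oxysterol receptor LXRα, rose in set 2 (0.34 ± 0.10, SE; limma, adjusted p = 0.0223). Rorb, the neural ROR receptor, had an FPKM of at most 0.01 in every library.

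Of the 11 tested genes on the list of REV-ERB and ROR targets, 3 fell and none rose in set 4 (Npas2, Cry1 and Nfil3), with a list median of -0.28 against 0.08 over all genes. In set 2 only Elovl3 fell, with a list median of 0.13 against 0.16. Elovl3, a fatty acid elongase of liver, was lower over both sets (-1.12 ± 0.27, SE; limma, adjusted p = 0.00288). Over both sets 1 gene of the list rose, Insig2, and 2 fell, Elovl3 and Cry1, where 30.8% of all tested genes were called. Insig2, which restrains sterol synthesis, had 0.55 ± 0.19 there (limma, adjusted p = 0.031) and 0.74 ± 0.27 (adjusted p = 0.0668) in set 4. Its call over both sets was lost in 4 of 7 other settings and in 8 of the 24 fits that left out 1 library. The apolipoprotein gene Apoc3 had -0.59 ± 0.27 (adjusted p = 0.147) in set 4. Cry1 and Nfil3 were also the list's 2 genes whose effects differed between the sets by limma's test.

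Of the 12 tested genes on the list of D-box and PAR bZIP targets, 1 rose and 2 fell in set 4. In set 2, 2 rose (Por and Cyp7a1) and 3 fell (Per1, Alas1 and Cyp2a5). List medians were -0.29 in set 4 and -0.14 in set 2, against 0.08 and 0.16 over all genes. Of all tested genes 13.3% were called in set 4 and 15.1% in set 2. Por, the reductase that passes electrons to cytochrome P450 enzymes, rose by a log2 difference of 1.16 ± 0.13 (SE; limma, adjusted p = 6.59e-06) in set 4 and of 0.45 ± 0.13 (adjusted p = 0.0247) in set 2. Cyp2a5, a drug-metabolising cytochrome, fell in set 2 (-1.29 ± 0.24, adjusted p = 0.00138) and had -0.46 ± 0.24 (adjusted p = 0.21) in set 4. Per1 and Rora were the 2 that fell in set 4, and both calls are given above. Of the 7 kinases and ubiquitin ligases that act on clock proteins none was called by limma in either set, and 0 of 7 in set 4 and 1 of 7 in set 2 had an unadjusted p under 0.05.

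Genes of other responses were examined in the same comparisons. Of all tested genes 13.3% were called in set 4 (10.3% higher and 2.97% lower) and 15.1% in set 2 (13.0% higher and 2.13% lower). Of 10 tested glucocorticoid-induced genes 4 fell and none rose in set 4, among them the anti-inflammatory factor Tsc22d3 (-1.86 ± 0.35, SE; limma, adjusted p = 0.00164) and the mRNA-decay factor Zfp36 (-1.44 ± 0.29, adjusted p = 0.00241). Per1, given above as a core repressor, was also 1 of the 4, and in set 2 only Per1 of the list was called. Of 10 tested genes of the fasting and feeding response 1 rose (Cpt1a) and 1 fell (Angptl4) in set 4, and 2 rose (Cpt1a and Igfbp1) and 1 fell (Srebf1) in set 2. Cpt1a, the gate of fatty acid oxidation, thus rose in both (1.03 and 0.84), while the set 4 call of Angptl4 (-0.57, adjusted p = 0.0489) was lost in 18 of the 24 fits that left out 1 library. The part of these responses in the values of the 9 genes was not tested.

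How the 9 genes varied together was then examined library by library, within groups. Deviations of log2(FPKM + 1) from the group mean were correlated over the 24 libraries for all 36 pairs, with 100000 permutations within groups and adjustment over the 36 pairs. Of these, 6 positive and 5 negative Pearson correlations had an adjusted p under 0.05, and 8 of the 11 also by Spearman's rho. No pair with Usp2 was among them. Where r is given below without 2 libraries, the group means were not taken anew. The left-out libraries thus still shift the deviations of the others in their group. Dbp and Nfil3 had r = -0.74 (rho = -0.77; adjusted permutation p = 0.00468 and 0.00432), and r = -0.64 without the 2 libraries farthest from the median of Dbp. Nr1d1 and Nr1d2 had r = 0.75 (rho = 0.71; adjusted permutation p = 0.0128 and 0.0192), and r = 0.58 without WT set 2 replicates 3 and 5, the farthest in Nr1d1.

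Nfil3 was also negatively correlated with Hlf (r = -0.62, rho = -0.57; adjusted permutation p = 0.0164 and 0.0316; r = -0.50 without the 2 farthest libraries), with Nr1d1 (r = -0.62, rho = -0.60; 0.0164 and 0.0316; r = -0.51) and with Nr1d2 (r = -0.61, rho = -0.63; 0.019 and 0.028; r = -0.50). Nr1d2 went with Tef (r = 0.67, rho = 0.68; 0.0128 and 0.0192; r = 0.65), and Rora with Noct (r = 0.62, rho = 0.61; 0.0164 and 0.031; r = 0.50). Noct was not correlated with Nr1d1 past the adjustment (r = -0.61, rho = -0.47; 0.0983 and 0.102), and that value was -0.32 without WT set 2 replicates 3 and 5, on which it rested. All libraries share the FPKM scaling, which sets each level against the rest of its library.

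By the same deviations, the tested genes most like each of the 9 were listed, as a description with no test. Noct was most like Angptl4 (r = 0.91 over 24 libraries), a secreted lipase inhibitor, and Bcl6 (0.87), a transcriptional repressor. Nr1d1 was most like Sp5 (0.81) and R3hdml (0.79), and Dbp also had Sp5 first (0.66). Nr1d2 was most like Tubgcp2 (0.78), Cry2 (0.77) and Sphk2 (0.77). Rora was most like Arl4a (0.85) and Foxo1 (0.83), Tef like Dnmt3a (0.83), Hlf like Dgat2 (0.85) and Cebpa (0.85), Nfil3 like Shb (0.73) and Usp2 like Zmym5 (0.85). Angptl4 itself fell over both sets (-0.47 ± 0.13, SE; limma, adjusted p = 0.00928).

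Some values bear on how the levels of the 9 genes can be read. In bulk liver, fewer cells of a type and less RNA per cell cannot be told apart. The 6 Kupffer cell markers summed to a median FPKM of 64.2 (32.9 to 126) in L2d13 set 4 and of 27.6 (17.7 to 78.3) in WT set 4, and to 96.8 (68.2 to 146) and 82.6 (49.3 to 115) in set 2. None of the 6 was called by limma within a set, and 4 in set 4 and 0 in set 2 had an unadjusted p under 0.05 (list medians 0.75 and 0.30). Over both sets 2 rose, Clec4f (0.61, adjusted p = 0.0232) and Vsig4 (0.68, adjusted p = 0.0376). The call of Clec4f was lost in 3 of 7 other settings, and that of Vsig4 in 5 of 7 and in 11 of the 24 fits that left out 1 library. The 6 sinusoidal endothelium markers summed to medians of 53.8 and 40.2 in L2d13 and WT of set 4 and of 104 and 71.0 in set 2, where Pecam1 and Lyve1 rose. The 6 stellate cell markers summed to 60.8 and 58.6 in set 4 and to 103 and 76.5 in set 2, where Dcn, Lrat and Rgs5 rose. Among the 6 hepatocyte markers in set 4, Ttr fell (-0.76 ± 0.17, SE; limma, adjusted p = 0.00449) and Cps1 (1.25 ± 0.38, adjusted p = 0.0315) and Cyp2e1 (0.58 ± 0.15, adjusted p = 0.0152) rose. In set 4 1 marker fell in each of 3 further lists: S100a8 among neutrophil markers (summed median 2.75 in L2d13 against 7.71 in WT), Sox9 among cholangiocyte markers (19.3 against 27.7) and Alas2 among erythroid markers (878 against 1210). The 4 measured lymphocyte markers summed to 1.63 and 1.39. The part of these cells in the results was not tested. No list had a marker at 0 in a whole group.

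The strand setting of the counting is not given in the sources used here, so reads of overlapping genes on opposite strands cannot be told apart. Dbp shares 539 of its 2993 exon bases with Sphk2, whose median FPKM was 45.39 in L2d13 and 17.9 in WT in set 2, and 47.16 and 17.12 in set 4. Dbp itself had medians of 0.98 in L2d13 and 1.32 in WT in set 2, and of 7.72 and 0.83 in set 4. The part of Sphk2 reads in these Dbp values was not tested. Nr1d1 shares 263 of its 3077 exon bases with Thra, whose group medians were 5.4 to 7.88. Rora, Tef and Usp2 overlap antisense genes that the table does not list. Isoforms of a gene were not separated by these values.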

How the data were processed

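Per the labels, TRIzol was used to isolate total liver RNA, and a BGISEQ-500 instrument read the libraries. The authors deposited 1 table of FPKM values for 18171 genes in 24 libraries. GRCm38.p5 is the build in the submitters' processing notes, which list RSEM, Bowtie2 and HISAT with no version, and further steps are not given in the sources used here. Gene identifiers were matched to RefSeq symbols (18040 of 18171). FPKM hold no depth, so no count test was made.

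Log2(FPKM + 1) of the 10532 genes that reached an FPKM of 1 in 6 or more libraries was fitted with limma 3.58.1 (R 4.3.3; variance trend), two-sided, with Benjamini-Hochberg adjustment over all tested genes and a threshold of 0.05. One fit had additive terms for set and genotype, and another had 1 mean per group. Exact permutation tests covered single genes within a set, and tables were made in Python 3.11.15. The fit was tested on simulated data.

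The 9 genes and all lists were chosen with earlier results of these data known. Named are the 9 genes, core clock genes, of other lists up to 4 members with the smallest p over both sets and up to 2 for another contrast, and the 3 genes most like each of the 9. Genes named beside a list's count that fall outside that rule were named after their values were seen. Some genes are not reported here and were left out of the lists and their counts, but not of the fit. Gene positions are those of the GENCODE annotation of GRCm38. Alternatives were another pseudocount, other filters, 2 scalings, left-out libraries and a block for replicate number.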

Additional observations from a re-analysis of the deposited data

Results flagged for a closer look

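In 5 of the 36 groups of 6 libraries (9 genes in 4 groups) 1 library stood far from the others, its gap to the next taking a share of the group's range above Dixon's 95% critical value. For normally distributed values chance flags about 1 group in 20. FPKM were used here without logs, so that rate may not hold. WT set 2 replicate 5 had a Dbp FPKM of 7.75, with the next library at 1.65. WT set 4 replicate 10 had a Dbp FPKM of 2.5, with the next at 1.13. L2d13 set 2 replicate 3 was highest in Tef (23.58, next 12.73) and in Nfil3 (61.29, next 40.81). WT set 2 replicate 6 had a Usp2 FPKM of 13.0, with the next at 4.93. Of these, L2d13 set 2 replicate 3, WT set 2 replicate 6 and WT set 4 replicate 10 are among the 4 libraries of higher FPKM per fragment.

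The genotype effect differed between set 4 and set 2, by limma's test of the difference, in Nr1d1 (3.11, adjusted p = 0.00541), Nr1d2 (1.56, 0.00982), Nfil3 (-1.83, 0.0212) and Cry1 (-0.99, 0.0368). The Cry1 call was lost in 16 of the 24 fits that left out 1 library.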

How the results depend on the processing

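Among the 9 genes, the set 4 calls of Nr1d1, Nr1d2, Dbp, Nfil3, Noct and Usp2 and the set 2 call of Noct were kept in every setting and with any 1 library left out. The other 2 set 4 calls, Rora and Tef, were lost as given above. The call of Nr1d2 over both sets (0.53, adjusted p = 0.0495) was lost in 18 of 24 fits that left out 1 library and, with adjusted p of 0.0868 to 0.16, in 5 other settings. Median-of-ratios scaling and quantile normalization moved the median of all genes by -0.15 in set 2, by -0.12 and -0.11 over both sets and by 0.15 and 0.16 between the sets of L2d13.

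In set 2, 2 of the 9 genes were called under either scaling, against 1, and 763 and 827 of all genes, against 1588. Between the sets of L2d13 the scalings called 301 and 345 genes, against 638. For the difference of the effects, the fit without the 4 libraries of higher FPKM per fragment called 1 of the 9, against 3, and 6 genes in all, against 16, and the fit without the filter also called 6. Same-numbered libraries had a correlation of deviations over 0.1 in 4 of 12 pairs (r of -0.604 to 0.26). The labels do not say whether the numbers pair the libraries, and these correlations cannot settle it. With the replicate block 807 genes were called in set 2 and 679, against 1403, in set 4.

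With 1 library left out, the genes called ranged from 2734 to 3842 over both sets, 972 to 1826 in set 2, 835 to 2433 in set 4, 6 to 19 for the difference, 7 to 82 between the sets of WT and 294 to 876 between those of L2d13. Of the 9 genes these fits called 4 to 6, 1 to 2, 6 to 8, 2 to 4, 0 to 0 and 4 to 5. In these fits signs turned, for values that were not called, in the set 2 effect of Nr1d1 (3 fits), the set 4 effects of Hlf (3) and Ciart (1), the difference of the effects of Noct (9) and Clock (7), and the change between sets of Rora in WT (2) and Hlf in L2d13 (1). Under the other settings signs turned, for values not called, in Clock in set 4 to -0.0 and Ciart in set 4 to 0.23 without the 4 libraries, Rora between the sets of WT to 0.04 under both scalings and without the 4 libraries, Hlf between the sets of L2d13 to -0.01 without the 4 libraries and Usp2 there to 0.01 with quantile normalization. The cause of these shifts was not tested. Depth is unknown, so the counting error of low values, such as those of Dbp near an FPKM of 1, could not be computed.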
